A study of Mus musculus with 12 samples.

Results

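The T cell receptor and regulatory T genes were Cd3e, Cd3d, Cd3g, Cd4, Cd8a, Cd8b1, Lck, Foxp3, Ctla4 and Icos, and were measured here in whole left lung. All probe sets annotated with exactly 1 of these symbols were used. They were 16 of the 45101 probe sets of the array and covered 9 of the 10 genes, out of 18193 genes with such a probe set. Lck, the kinase that starts signalling at the receptor, had 0 probe sets in the annotation used and was not analysed here.

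The antigen receptor of a T cell is carried on the membrane by the CD3 chains, which pass its signal into the cell. CD4 marks helper and most regulatory T cells and CD8 marks cytotoxic T cells, and both coreceptors bind the MHC molecule that presents the antigen. FOXP3 is the transcription factor of regulatory T cells, CTLA4 is an inhibitory receptor that these cells carry at high level, and ICOS is a costimulatory receptor of activated T cells. NF-κB dimers that contain p50, a product of Nfkb1, act downstream of the T cell receptor.

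The 12 arrays came from 12 male mice of 6 to 8 weeks, 3 in each of 4 groups. Nfkb1KO-O3 and WT-O3 mice inhaled 0.3 ppm O3 for 48 h, and Nfkb1KO-Air and WT-Air mice breathed filtered air in a separate chamber over the same period. Nfkb1KO mice were B6;129P-Nfkb1tm1Bal/J, which carry a germline null allele of Nfkb1, the gene of p105 and p50, and WT mice were B6129PF2/J, the hybrid strain used as their control. The comparisons ask how these genes differ between genotypes in air and after O3, how they change with O3 in each genotype, and whether that change differs between genotypes. The annotation named 0 probe sets for Nfkb1, so that the genotype labels were not checked against the targeted gene. In homogenised lung fewer T cells and less RNA per T cell cannot be told apart.

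Values are log2 signals after quantile normalisation, with errors as SD over 3 mice for a group and as standard error for a difference. A difference is called at a Benjamini-Hochberg adjusted p under 0.05 in limma, over the 42559 probe sets that exceeded the 20th percentile (log2 4.37) on 1 or more arrays. Of the 16 member probe sets, 15 passed, and the second Cd4 probe set (1427779_a_at, log2 0.96 to 2.75) did not. The median signal of an array before normalisation was between 99.1 and 121.2 on 11 arrays and 180.1 on Nfkb1KO-Air replicate 1, whose rank correlation with the others (0.915 to 0.930) lay below that among the others (0.947 to 0.969). WT-Air replicate 3 had high skeletal muscle transcripts, with a log2 signal of 12.31 for the fast myosin Myh4 and a summed linear signal of 27957 over 6 muscle markers. Nfkb1KO-O3 replicate 2 had the next highest muscle sum, 8199, against 1682 and 375.6 in replicates 1 and 3 of its group. Defining lung transcripts were present, since the summed linear signal of 8 lung epithelial markers was 139720 to 164974 on every array.

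The T cell genes were weakly to moderately measured. Cd3d (mean log2 7.81 over 12 arrays), Cd3g (7.68) and 1 probe set of Cd8a (1440164_x_at, 6.87) were the 3 of 16 probe sets whose mean exceeded the median signal of 6.80. Cd4 lay at or below the 20th percentile on 10 of the arrays with its better probe set, and Ctla4 on 3. Foxp3, the defining gene of regulatory T cells, stood at a mean of 5.70, which is percentile 37.05 of all probe sets, and at 4.89 to 6.31 on single arrays.

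Cd3g, Cd3d and Cd3e, the genes of the CD3 gamma, delta and epsilon chains, lie side by side on mouse chromosome 9, and their signals varied together from mouse to mouse. Over the 12 arrays, Pearson's r was 0.78 for Cd3d with Cd3g, 0.69 for Cd3e with Cd3g and 0.58 for Cd3e with Cd3d. With group means removed, the same values were 0.84, 0.50 and 0.37. Such values were not particular to neighbouring genes. Cd3d with Cd8b1, on chromosome 6, had 0.77 (0.76 with group means removed). Cd3g with Icos, on chromosome 1, had 0.59 (0.73), whereas Cd3e with Cd8b1 had 0.26 (0.12). These are descriptions over arrays that share normalisation and group. The promoters of the 3 CD3 genes, from RefSeq on build GRCm38.p6, are shown as a description of these neighbouring genes. Each is the 250 bases before the start, 5′ to 3′ on the gene's own strand (Cd3g at chr9:44980432-44980681, minus; Cd3d at chr9:44981536-44981785, plus; Cd3e at chr9:45009612-45009861, minus), with capitals for the E box, CANNTG, which E proteins of the lymphocyte lineage bind.
Cd3g: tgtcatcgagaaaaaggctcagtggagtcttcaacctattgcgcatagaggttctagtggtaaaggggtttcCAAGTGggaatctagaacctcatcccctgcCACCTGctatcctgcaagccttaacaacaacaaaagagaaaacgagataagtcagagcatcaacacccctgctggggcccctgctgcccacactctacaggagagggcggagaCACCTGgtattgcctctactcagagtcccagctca
Cd3d: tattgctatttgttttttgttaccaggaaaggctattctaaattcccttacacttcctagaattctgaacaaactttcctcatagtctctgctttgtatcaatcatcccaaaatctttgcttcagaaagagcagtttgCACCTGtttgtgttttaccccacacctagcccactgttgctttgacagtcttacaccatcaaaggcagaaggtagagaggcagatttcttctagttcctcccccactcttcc
Cd3e: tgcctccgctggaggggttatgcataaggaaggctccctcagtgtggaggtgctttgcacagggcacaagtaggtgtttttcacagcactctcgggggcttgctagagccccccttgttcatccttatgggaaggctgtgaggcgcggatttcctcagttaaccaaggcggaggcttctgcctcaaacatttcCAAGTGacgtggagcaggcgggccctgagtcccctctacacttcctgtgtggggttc

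The Cd3g promoter held 3 E boxes, and those of Cd3d and Cd3e 1 each. Among 32851 mouse promoters of the same length, 66.2% held at least 1. The ETS core GGAA, bound by the ETS factors of lymphocytes, was found 2 times in Cd3g, 6 times in Cd3d and 5 times in Cd3e, and is in 93.4% of all promoters. The TATA box TATAAA, present in 12.4% of promoters, was in 0 of the 3. The κB consensus, the element that p50 dimers bind, was matched in 0 of the 3 and in 7.25% of all promoters. All motifs were searched on both strands, and the ETS core can lie inside a κB site. A match or its absence describes these letters only.

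Cd3e, the epsilon chain, which the receptor needs to reach the cell surface, was the most variable of the CD3 genes. Its log2 signals were 6.66, 4.94 and 6.32 in Nfkb1KO-O3 lungs, 4.67, 5.47 and 5.41 in WT-O3 lungs, 5.74, 5.91 and 5.47 in Nfkb1KO-Air lungs, and 6.86, 5.71 and 7.75 in WT-Air lungs. The WT-O3 mice all lay below the WT-Air mice, whereas both Nfkb1KO groups overlapped each other. Group means were 5.97 ± 0.91 in Nfkb1KO-O3 lungs, 5.18 ± 0.45 in WT-O3 lungs, 5.71 ± 0.22 in Nfkb1KO-Air lungs and 6.77 ± 1.02 in WT-Air lungs (SD, n = 3 each).

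Cd3d, the delta chain, was the brightest member. It had 8.02, 7.66 and 8.45 in Nfkb1KO-O3 lungs, 7.50, 7.61 and 7.30 in WT-O3 lungs, 6.81, 8.12 and 8.05 in Nfkb1KO-Air lungs, and 7.97, 7.88 and 8.39 in WT-Air lungs. WT-O3 mice were below WT-Air mice and below Nfkb1KO-O3 mice without overlap, and the low Nfkb1KO-Air value belongs to replicate 1, the array that stands apart. Cd3g, the gamma chain, had 7.59, 7.20 and 8.0 in Nfkb1KO-O3 lungs, 7.58, 7.55 and 7.42 in WT-O3 lungs, 7.34, 7.66 and 7.90 in Nfkb1KO-Air lungs, and 7.99, 7.80 and 8.13 in WT-Air lungs. Again the WT-O3 mice lay below every WT-Air mouse, and the remaining groups overlapped.

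The coreceptor genes showed little order by group. Cd8b1, the beta chain of CD8, averaged 6.25 ± 0.12 in Nfkb1KO-O3 lungs, 5.87 ± 0.38 in WT-O3 lungs, 6.07 ± 0.76 in Nfkb1KO-Air lungs and 6.15 ± 0.17 in WT-Air lungs (SD, n = 3 each). Its lowest value, 5.21, was in Nfkb1KO-Air replicate 1. Cd4 averaged 3.95 ± 0.42 in Nfkb1KO-O3 lungs, 3.74 ± 0.41 in WT-O3 lungs, 3.86 ± 0.36 in Nfkb1KO-Air lungs and 4.16 ± 0.22 in WT-Air lungs, near the low end of the array in every group.

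Cd8a, the alpha chain, was covered by 5 probe sets that did not follow one another. Pearson's r between pairs of them was -0.36 to 0.34 over 12 arrays. The brightest (1440164_x_at) averaged 7.05 ± 0.23 in Nfkb1KO-O3 lungs, 6.70 ± 0.38 in WT-O3 lungs, 6.84 ± 0.37 in Nfkb1KO-Air lungs and 6.87 ± 0.38 in WT-Air lungs (SD, n = 3 each). The dimmest (1440811_x_at) lay at or below the 20th percentile on 10 arrays and spread over log2 1.93 to 5.51. The 5 were therefore kept apart in the comparisons.

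**Figure D1:**
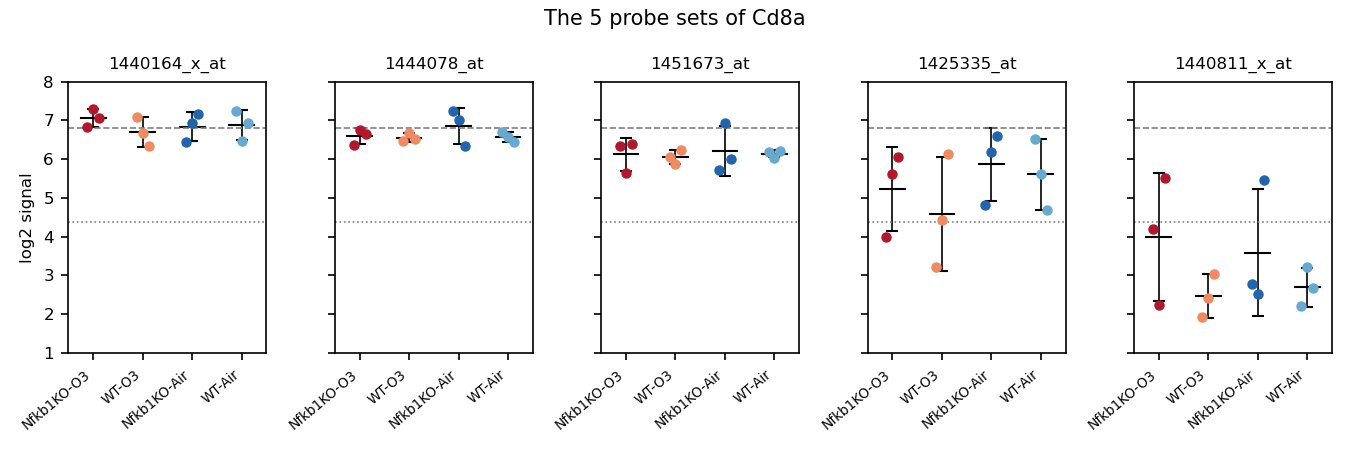
Log2 signal (y axis) of the 5 probe sets of Cd8a in the 4 groups (x axis), with 1 point per mouse, the group mean as a bar and SD as the error bar; the dashed line is the median of all probe sets (6.80) and the dotted line the 20th percentile (4.37). The first 3 probe sets stay between 5.63 and 7.28 on all arrays, and the other 2 spread over several log2 units.

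Of the regulatory genes, Ctla4 varied most. Its log2 signals were 3.47, 4.45 and 3.20 in Nfkb1KO-O3 lungs, 4.88, 4.95 and 5.55 in WT-O3 lungs, 4.84, 6.02 and 5.35 in Nfkb1KO-Air lungs, and 5.82, 3.35 and 5.98 in WT-Air lungs. The Nfkb1KO-O3 mice lay below all WT-O3 and all Nfkb1KO-Air mice, and 2 of the 3 were under the 20th percentile, as was WT-Air replicate 2. Foxp3 had 5.30, 6.31 and 6.26 in Nfkb1KO-O3 lungs, 5.59, 6.16 and 4.89 in WT-O3 lungs, 5.44, 5.68 and 6.19 in Nfkb1KO-Air lungs, and 5.36, 6.08 and 5.15 in WT-Air lungs. All 4 groups of Foxp3 overlapped.

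Icos was covered by 3 probe sets that went different ways. The brightest (1436598_at) had 5.77, 5.73 and 6.83 in Nfkb1KO-O3 lungs, 6.63, 6.58 and 6.25 in WT-O3 lungs, 6.87, 6.51 and 6.90 in Nfkb1KO-Air lungs, and 6.62, 6.37 and 6.90 in WT-Air lungs. Its Nfkb1KO-O3 mice split, with replicates 1 and 2 low and replicate 3 within the other groups. The third (1421931_at) averaged 5.89 ± 0.38 in Nfkb1KO-O3 lungs and 4.63 ± 1.21 in Nfkb1KO-Air lungs (SD, n = 3 each) without overlap, opposite in direction to the first.

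**Figure D2:**
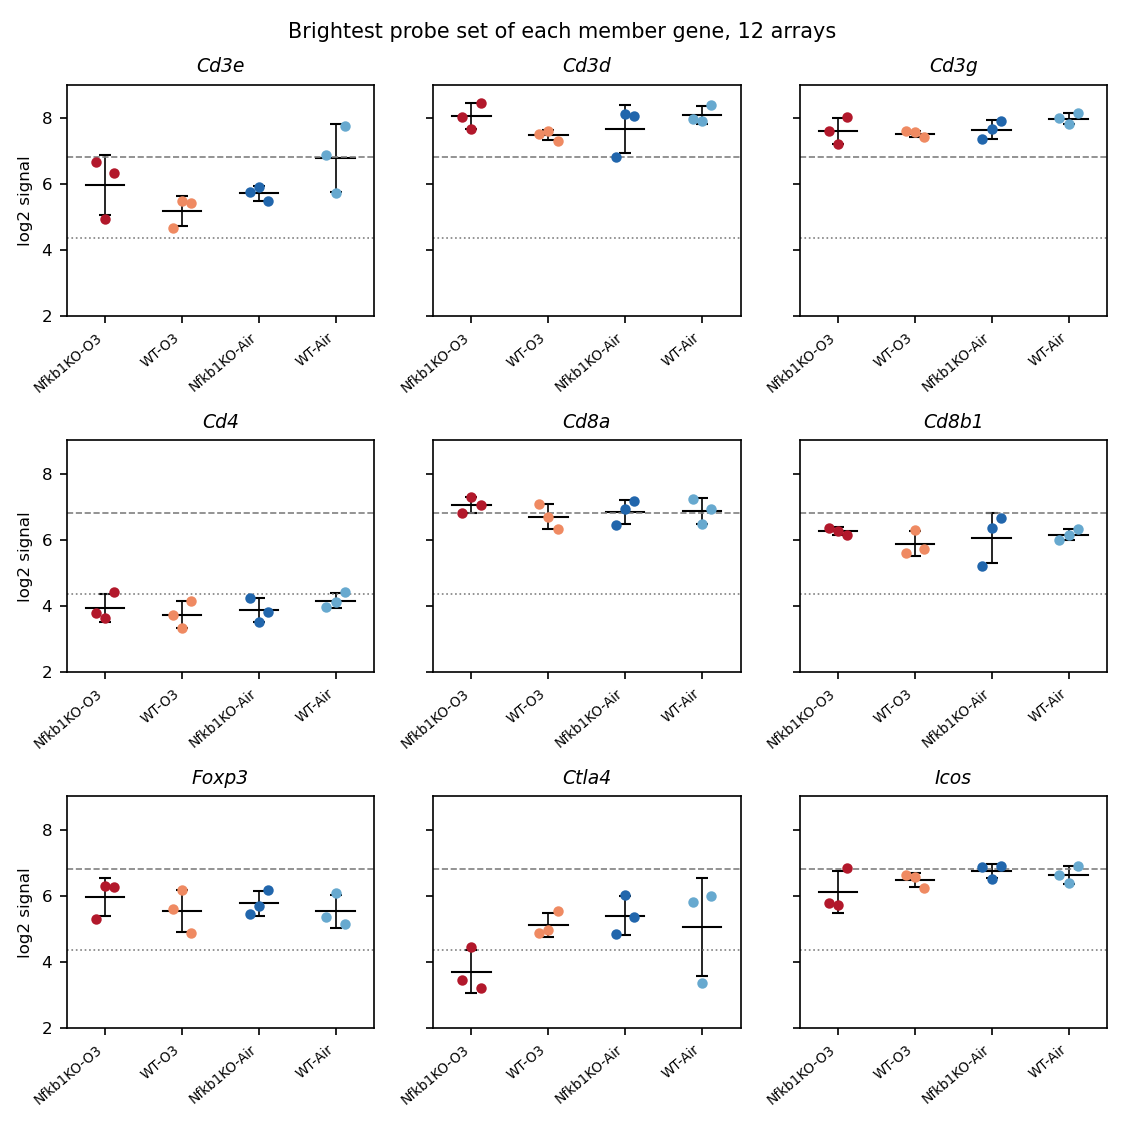
Log2 signal (y axis) of the brightest probe set of each of the 9 member genes in the 4 groups (x axis), with 1 point per mouse, the group mean as a bar and SD as the error bar; the dashed line is the median of all probe sets (6.80) and the dotted line the 20th percentile (4.37). WT-O3 mice lie below WT-Air mice for Cd3e, Cd3d and Cd3g, and Nfkb1KO-O3 mice (3.20 to 4.45) lie below WT-O3 and Nfkb1KO-Air mice for Ctla4.

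In air, 0 of the 15 member probe sets were called between Nfkb1KO-Air and WT-Air lungs (limma, against 0.183% of all probe sets). At an unadjusted p under 0.05 there were 0 as well, against 9.3% of all probe sets, and 0 of 15 had groups that did not overlap, against 12.2%. The unadjusted count was 1 without WT-Air replicate 2 and without Nfkb1KO-O3 replicate 2. In the methods' t-test, run here in its ordinary form, 0 members had a p under 0.05, against 2399 of the 42559 probe sets. After adjustment it called 0 of all probe sets. The median difference was 0.07, against -0.01 for all probe sets, with 8 positive and 7 negative. That of Cd3e lay farthest from 0 (log2 -1.07 ± 0.54, 95% interval -2.23 to 0.10, adjusted p = 0.57). Cd3d (-0.42 ± 0.32) and Cd3g (-0.34 ± 0.22) were also negative, and Foxp3 (0.24 ± 0.45) and Ctla4 (0.35 ± 0.68) positive. Without the 2 arrays that stand apart, Cd3e was -0.61 ± 0.62, Cd3g -0.12 ± 0.26 and Cd3d 0.16 ± 0.25.

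After O3, 0 of 15 were called between Nfkb1KO-O3 and WT-O3 lungs (limma, against 0.409% of all probe sets), and 0 reached an unadjusted p under 0.05, against 7.69%. Without Nfkb1KO-O3 replicate 2, which had the highest skeletal muscle signal of its group, 4 reached it, and 0 were called. These were Cd3e (1.31 ± 0.53), Cd3d (0.76 ± 0.35), the dimmest Cd8a probe set (2.39 ± 0.99) and Ctla4 (-1.80 ± 0.75). The count was 1 without WT-Air replicate 2, Nfkb1KO-Air replicate 1 or Nfkb1KO-O3 replicate 3. Of the 15, 12 were positive and the median was 0.21, against -0.01 for all probe sets. Cd3d was higher without overlap in Nfkb1KO-O3 lungs (log2 0.58 ± 0.32, 95% interval -0.11 to 1.26, adjusted p = 0.73), as were 7.66% of all probe sets. Ctla4 was lower without overlap (-1.42 ± 0.68, 95% interval -2.88 to 0.05, adjusted p = 0.66), as were 9.03%. Cd3e had a difference of 0.79 ± 0.54 and Foxp3 of 0.41 ± 0.45, and neither was called.

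With O3 in WT mice, all 3 CD3 chains were lower without overlap, and these were the only 3 of 15 members to be so. Probe sets that were lower without overlap made up 10.7% of all, and those higher, of which the members held 0, 13%. The differences were -1.59 ± 0.54 for Cd3e (95% interval -2.75 to -0.43), -0.61 ± 0.32 for Cd3d (-1.30 to 0.07) and -0.46 ± 0.22 for Cd3g (-0.94 to 0.03). None was called (adjusted p = 0.15, 0.38 and 0.35 for Cd3e, Cd3d and Cd3g in limma), and 0 of 15 members were, against 3.23% of all probe sets. Cd3e was the 1 member at an unadjusted p under 0.05, a level that 15.9% of all probe sets reached. That count was 0 without WT-Air replicate 3, 2 without WT-O3 replicate 3, Nfkb1KO-O3 replicate 2 or Nfkb1KO-O3 replicate 3, and 3 without Nfkb1KO-Air replicate 1.

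The WT-Air side of that comparison rests on mice that differ. WT-Air replicates 3 and 1 had the highest Cd3e, and within the WT-Air group these same arrays had the higher summed signals of B cell markers (7250 and 3245, against 2432 in WT-Air replicate 2) and of lymph node markers (2586 and 1610, against 490.3). The summed signal of 7 immature thymocyte markers had the same order, at 2003 and 1632, against 1123 in WT-Air replicate 2. Most of that linear sum came from 1 gene, Cd1d1, so that its order is mainly that of Cd1d1. With O3 in WT mice Cd1d1 was the 1 thymocyte marker called (log2 -1.27 ± 0.27, adjusted p = 0.026 in limma, against 3.23% of all probe sets). By gene, 4 of the 7 thymocyte markers were positive and 3 negative with O3 in WT mice, with a median of 0.41. Over all 12 arrays the lymph node and thymocyte sums of WT-Air replicates 3 and 1 were the highest as well, the thymocyte sums again mainly through Cd1d1. The B cell sum of WT-Air replicate 1, in contrast, lay within the ranges of the Nfkb1KO-O3 and WT-O3 groups. Skeletal muscle markers were 27957, 5286 and 1164 on WT-Air replicates 3, 1 and 2. Without WT-Air replicate 3, the Cd3e difference was -1.10 ± 0.55 (adjusted p = 0.44). Without WT-Air replicate 2 it was -2.12 ± 0.52 and was called (adjusted p = 0.048). The part of those lymphoid and muscle transcripts in the Cd3e difference was not tested.

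With O3 in Nfkb1KO mice, 0 of 15 members were called, against 3.59% of all probe sets, and 1 reached an unadjusted p under 0.05, against 18.1%. That member was Ctla4, lower in all Nfkb1KO-O3 mice than in any Nfkb1KO-Air mouse (log2 -1.69 ± 0.68, 95% interval -3.16 to -0.23, adjusted p = 0.20). The count was 0 without Nfkb1KO-Air replicate 2 or Nfkb1KO-O3 replicate 1, and 2 without WT-Air replicate 3 or Nfkb1KO-Air replicate 1. Of all probe sets, 9.57% were lower without overlap. The Icos probe set 1421931_at was higher without overlap (1.25 ± 0.60, adjusted p = 0.29), as were 12.3% of all. The CD3 chains had differences of 0.27 ± 0.54 for Cd3e, 0.39 ± 0.32 for Cd3d and -0.04 ± 0.22 for Cd3g. For Cd3d the sign turned to -0.04 ± 0.24 without Nfkb1KO-Air replicate 1. The 2 O3 comparisons have no arrays in common, while each shares its groups with a genotype comparison.

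The O3 change in Nfkb1KO mice minus that in WT mice was positive for all 3 CD3 chains, at 1.85 ± 0.76 for Cd3e (95% interval 0.21 to 3.50), 1.00 ± 0.45 for Cd3d (0.03 to 1.97) and 0.42 ± 0.32 for Cd3g (-0.27 to 1.10). None was called (adjusted p = 0.93 for each in limma), and 0 of 15 members were, against 0.0188% of all probe sets. Cd3e and Cd3d were the 2 members at an unadjusted p under 0.05, against 5.09% of all probe sets. The count was 0 without WT-Air replicate 1, WT-O3 replicate 1, Nfkb1KO-O3 replicate 1 or Nfkb1KO-O3 replicate 3. It was 1 without WT-Air replicate 3, WT-O3 replicate 2 or 3, or Nfkb1KO-Air replicate 1 or 3. Without the 2 arrays that stand apart, Cd3e was 1.42 ± 0.80 and Cd3d 0.43 ± 0.32. All 6 skeletal muscle markers were positive in the same comparison, with a median of 4.54 and 0 called. Their summed signal was 375.6 to 8199 in Nfkb1KO-O3 lungs, 404.1 to 917.3 in WT-O3 lungs, 1103 to 1789 in Nfkb1KO-Air lungs and 1164 to 27957 in WT-Air lungs. Cd3e was 2.37 ± 0.71 without Nfkb1KO-O3 replicate 2 and 1.37 ± 0.74 without WT-Air replicate 3, the arrays with the most muscle signal. For Ctla4 the value was -1.77 ± 0.96 (adjusted p = 0.93). A difference in the O3 response of these genes between genotypes was not detectable with 3 mice per group, and several intervals reach beyond log2 1.5.

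Across the 15 probe sets, the half-width of the 95% interval of a difference between 2 groups was 0.48 to 2.11 with a median of 0.96. Smaller differences could not be told from the spread between mice. An exact test of 3 against 3 mice cannot go below p = 0.1, and p-values measure the spread between these mice only.

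**Figure D3:**
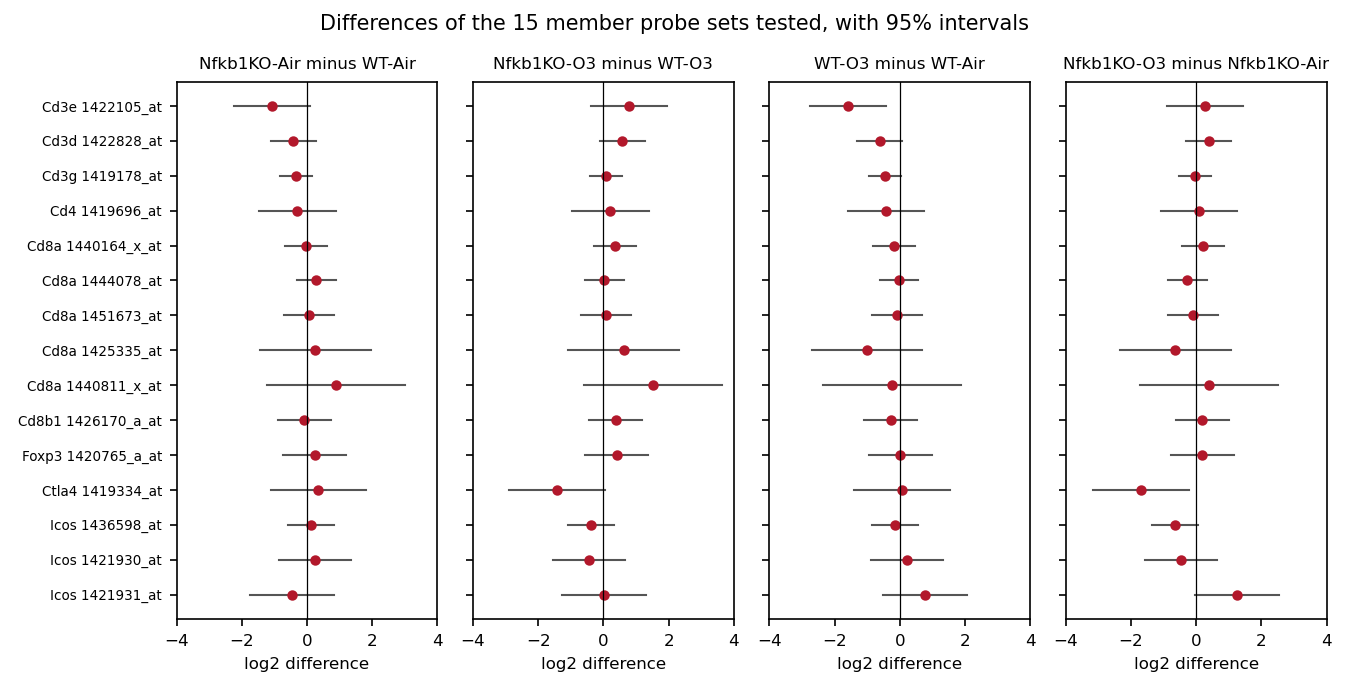
Log2 difference (x axis, point) with its 95% interval (line) for the 15 member probe sets tested (rows) in 4 comparisons (panels). The intervals that leave out 0 are those of Cd3e with O3 in WT mice (-2.75 to -0.43) and of Ctla4 with O3 in Nfkb1KO mice (-3.16 to -0.23), and neither was called after adjustment.

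Of 31 measured genes of T cell receptor signalling and pan-T identity, 1 was called, with O3 in WT mice, where 3.23% of all probe sets were. This gene was Thy1, a surface glycoprotein of mouse T cells that other cell types also carry. Thy1 had 8.17, 7.98 and 8.37 in WT-O3 lungs, against 9.11, 9.21 and 9.21 in WT-Air lungs (2.01-fold lower, log2 -1.0 ± 0.15, adjusted p = 0.0044). In Nfkb1KO-O3 lungs it had 8.23, 8.29 and 8.60, against 8.76, 9.11 and 9.0 in Nfkb1KO-Air lungs, which just missed the threshold (-0.58 ± 0.15, adjusted p = 0.054) and passed it without Nfkb1KO-Air replicate 1 (-0.69, adjusted p = 0.048). With median-centred arrays the call in WT mice was lost (adjusted p = 0.11). With O3 in WT mice, 25 of the 31 genes were negative with a median of -0.38, against -0.0028 for all probe sets, among them Cd247, the zeta chain of the receptor complex (-0.83 ± 0.28, adjusted p = 0.15). With O3 in Nfkb1KO mice, 20 of 31 were negative with a median of -0.21. Between Nfkb1KO-O3 and WT-O3 lungs, 22 of 31 were positive, with a median of 0.16 and 0 called.

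Of 22 regulatory T and checkpoint genes that passed the filter, Nt5e and Entpd1, which encode the ectoenzymes CD73 and CD39 that turn extracellular ATP into adenosine, were called with O3, both in WT mice (against 3.23% of all probe sets) and Nt5e in Nfkb1KO mice (against 3.59%). Both are also made by cells other than T cells. Nt5e had 11.07, 11.33 and 11.26 in WT-O3 lungs, against 10.26, 10.43 and 9.98 in WT-Air lungs (log2 1.00 ± 0.12, adjusted p = 0.0010). It had 11.44, 11.26 and 11.50 in Nfkb1KO-O3 lungs, against 10.36, 10.39 and 10.23 in Nfkb1KO-Air lungs (1.07 ± 0.12, adjusted p = 0.0012). All O3 mice lay above all air mice in both genotypes. The call in WT mice was lost with median-centred arrays (adjusted p = 0.060) and with the mean of the gene's probe sets (adjusted p = 0.12). Entpd1 was called in WT mice at 0.50 ± 0.12 (adjusted p = 0.047), and was lost when any 1 array other than Nfkb1KO-Air replicates 1 and 2 was left out (adjusted p = 0.059 to 0.21). Between Nfkb1KO-O3 and WT-O3 lungs, Il2rb, a chain of the IL-2 and IL-15 receptors that T and NK cells use, differed by 2.39 ± 0.56 (adjusted p = 0.13), Itgae, the integrin of tissue-resident T cells, by -1.25 ± 0.29 (adjusted p = 0.12), and Pdcd1, the PD-1 receptor, by 1.65 ± 0.71 (adjusted p = 0.59). Pdcd1 lay at or below the 20th percentile on 5 arrays, had 2.16, 3.16 and 4.62 in WT-O3 lungs, and overlapped between these groups. Il2rb passed the threshold without WT-O3 replicate 3 (3.02, adjusted p = 0.033) and Itgae without Nfkb1KO-Air replicate 1 (-1.29, adjusted p = 0.029). The Il2rb difference with O3 in WT mice was -1.53 ± 0.56 (adjusted p = 0.18 in limma), and these groups overlapped. Mean Il2rb was 7.40 in Nfkb1KO-O3 lungs and 7.04 in Nfkb1KO-Air lungs.

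Of 12 helper T regulators and cytokines that passed the filter, 1 was called, after O3, where 0.409% of all probe sets were called between genotypes. Tbx21, the transcription factor T-bet of type 1 T cells and NK cells, had 7.81, 7.50 and 7.93 in Nfkb1KO-O3 lungs, against 5.67, 6.24 and 6.44 in WT-O3 lungs (3.09-fold, log2 1.63 ± 0.28, adjusted p = 0.020). The groups did not overlap. In air the Tbx21 difference between genotypes was also positive but not called (0.75 ± 0.28, adjusted p = 0.43 in limma). Ifng, the cytokine that T-bet induces, had 5.61, 5.35 and 4.59 in Nfkb1KO-O3 lungs, against 2.91, 3.29 and 1.61 in WT-O3 lungs, all 3 of which lay under the 20th percentile (2.58 ± 0.58, adjusted p = 0.11). With O3 in WT mice, Tbx21 (-0.90 ± 0.28, adjusted p = 0.11 in limma) and Ifng (-1.68 ± 0.58, adjusted p = 0.16) were lower without overlap. Neither was called, and 10.7% of all probe sets were lower without overlap. Mean Tbx21 was 7.75 in Nfkb1KO-O3 lungs and 7.77 in Nfkb1KO-Air lungs, and mean Ifng 5.19 and 5.02. The Tbx21 call was kept in 19 of 24 alternative settings. It was lost without WT-O3 replicate 1 or 2 and without Nfkb1KO-O3 replicate 1 or 3 (adjusted p = 0.071 to 0.12).

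Ligands and chemokines that T cells respond to are made by other lung cells, and several of their genes were called. Cd274, the PD-1 ligand PD-L1, had 11.20, 10.89 and 10.01 in Nfkb1KO-O3 lungs, against 7.57, 7.71 and 7.87 in WT-O3 lungs (7.91-fold, log2 2.98 ± 0.24, adjusted p = 3.3e-05). Against Nfkb1KO-Air lungs, at 8.53, 8.42 and 8.31, the Nfkb1KO-O3 lungs were higher by 2.28 ± 0.24 (adjusted p = 0.0011). Tnfsf9, the ligand of the costimulatory receptor 4-1BB, was higher with O3 in WT mice (1.01 ± 0.20, adjusted p = 0.018) and in Nfkb1KO mice (0.96 ± 0.20, adjusted p = 0.021). Of the 10 ligands, 1 was called between genotypes after O3, against 0.409% of all probe sets. With O3, 1 was called in WT mice, against 3.23%, and 2 in Nfkb1KO mice, against 3.59%, and 1 was called in the interaction, against 0.0188%. The Tnfsf9 call was lost in WT mice without WT-Air replicate 1 or WT-O3 replicate 2 or 3 (adjusted p = 0.059 to 0.090), and in Nfkb1KO mice without Nfkb1KO-Air replicate 1 or Nfkb1KO-O3 replicate 1 or 3 (0.060 to 0.10).

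Among 8 measured T cell chemokines, Ccl17, a CCR4 ligand, was higher with O3 in WT mice (6.19-fold, log2 2.63 ± 0.28, adjusted p = 0.00054) and in Nfkb1KO mice (1.25 ± 0.28, adjusted p = 0.030). Its signals were 9.14, 8.66 and 9.57 in Nfkb1KO-O3 lungs, 10.42, 10.59 and 10.05 in WT-O3 lungs, 7.59, 8.06 and 7.96 in Nfkb1KO-Air lungs, and 8.38, 7.45 and 7.34 in WT-Air lungs. Ccl22, the other CCR4 ligand, was higher with O3 in WT mice (1.73 ± 0.36, adjusted p = 0.021), and was 5.90, 5.98 and 6.41 in Nfkb1KO-O3 lungs, against 7.44, 8.15 and 7.78 in WT-O3 lungs (-1.69 ± 0.36, adjusted p = 0.074, and 0.025 without WT-Air replicate 1). Ccl5, a chemokine that T and NK cells also make, in Nfkb1KO-O3 lungs exceeded its level in WT-O3 lungs (2.17 ± 0.33, adjusted p = 0.010). In air its difference between genotypes was also positive but not called (1.33 ± 0.33, adjusted p = 0.19 in limma). Mean Ccl5 was 8.22 in WT-O3 lungs and 9.22 in WT-Air lungs, and 10.39 in Nfkb1KO-O3 lungs and 10.55 in Nfkb1KO-Air lungs. Cxcl16, the CXCR6 ligand, was higher with O3 in WT mice (0.49 ± 0.12, adjusted p = 0.045) and in Nfkb1KO mice (0.72 ± 0.12, adjusted p = 0.0072). Of the 8, 3 were thus called with O3 in WT mice (3.23% of all probe sets), 2 in Nfkb1KO mice (3.59%) and 1 between genotypes after O3 (0.409%). Leaving out 1 array ended some of these calls. Ccl5 was lost without WT-O3 replicate 2 or Nfkb1KO-O3 replicate 1 (adjusted p = 0.062 and 0.072). Ccl22 in WT mice was lost without WT-Air replicate 2 or 3 or WT-O3 replicate 2 or 3 (0.053 to 0.12). Ccl17 in Nfkb1KO mice was lost without Nfkb1KO-Air replicate 1 or 3 or Nfkb1KO-O3 replicate 1 or 3 (0.060 to 0.11). Cxcl16 in WT mice was lost without any WT-O3 mouse, WT-Air replicate 1 or 3, Nfkb1KO-Air replicate 3 or Nfkb1KO-O3 replicate 1 or 3 (0.059 to 0.19). Neither the Ccl17 nor the Ccl22 response was called as different between genotypes (interaction adjusted p = 0.86 and 0.67).

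Dendritic cells also make Ccl17 and Ccl22, and some carry Itgae. Of 7 measured dendritic cell markers, a list that holds Ccl22 itself, 6 were negative between Nfkb1KO-O3 and WT-O3 lungs with a median of -0.60. Of the 7, 3 had an unadjusted p under 0.05, against 7.69% of all probe sets, and 0 were called, against 0.409%. The remaining marker, Cd209a, went the other way, at 8.70 ± 0.10 in Nfkb1KO-O3 lungs and 7.51 ± 0.99 in WT-O3 lungs (SD, n = 3 each). It had 9.67 ± 0.06 in Nfkb1KO-Air lungs and 7.13 ± 1.65 in WT-Air lungs. With O3 in WT mice all 7 markers were positive with a median of 0.33. Ccl22 was the 1 called, against 3.23% of all probe sets, and no marker beside it was. Their summed signal was 1165 to 1367 in Nfkb1KO-O3 lungs, 1390 to 1772 in WT-O3 lungs, 1627 to 1898 in Nfkb1KO-Air lungs and 1020 to 1746 in WT-Air lungs, and 0 of the 7 lay at or below the 20th percentile on all arrays. The part of dendritic cells in the Itgae, Ccl17 and Ccl22 differences was not tested.

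**Figure D4:**
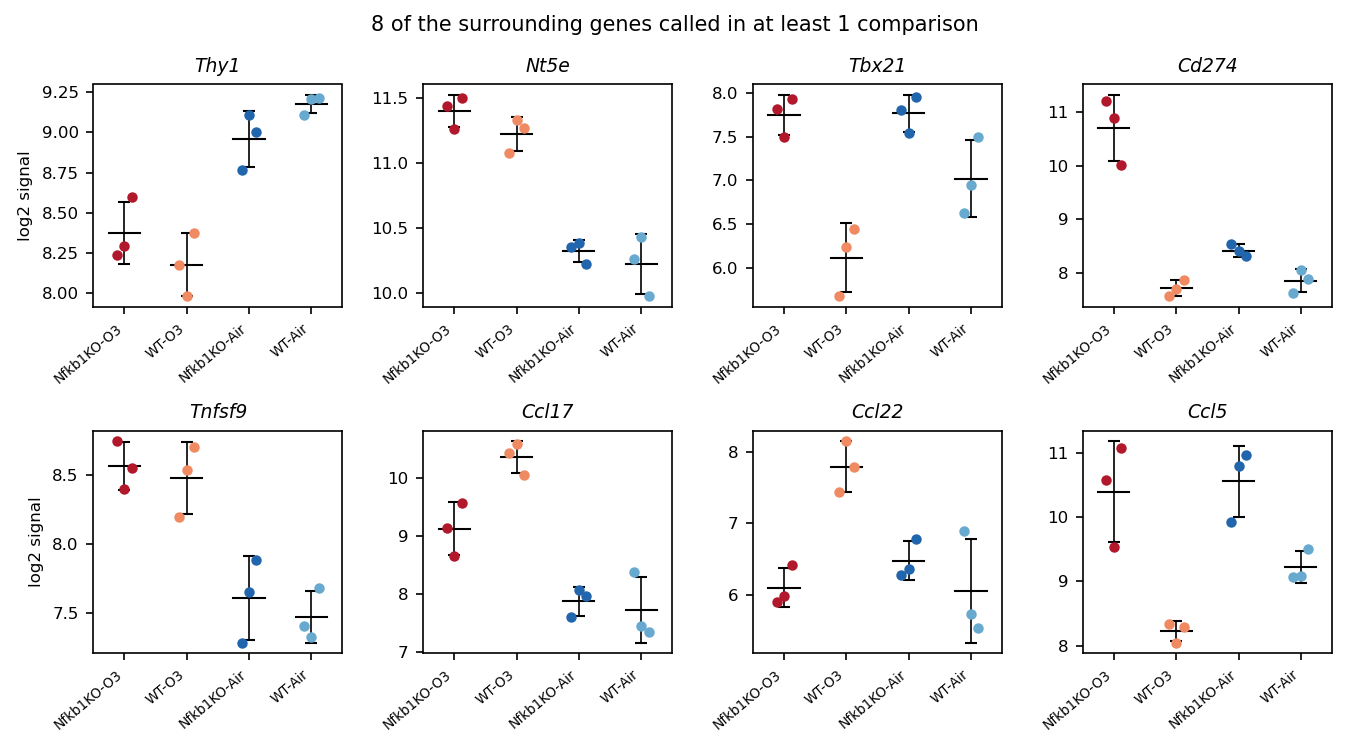
Log2 signal (y axis, its range set for each gene) of 8 genes outside the members that were called in at least 1 comparison, in the 4 groups (x axis), with 1 point per mouse, the group mean as a bar and SD as the error bar. Cd274 in Nfkb1KO-O3 lungs (10.01 to 11.20) lies above every other group, and Nt5e lies above log2 11 in both O3 groups and at 10.43 or less in both air groups.

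NK and cytotoxic lymphocyte genes share granzymes and perforin with CD8 T cells. Of 10 such markers, 7 were called higher in Nfkb1KO-O3 lungs, against WT-O3 lungs (Gzma, Gzmb, Nkg7, Klrd1, Eomes, Ncr1 and Klrk1), against 0.409% of all probe sets called in either direction, and all 10 were positive with a median of 1.71. Between genotypes in air, all 10 were positive as well, with a median of 0.96. There, 2 were called higher in Nfkb1KO lungs (Gzma and Gzmb), against 0.183% of all probe sets in either direction. With O3 in WT mice, 4 of 10 were called lower, against 3.23% in either direction, and all 10 were negative. Their summed linear signal was 3701 to 5840 in Nfkb1KO-O3 lungs, 856.1 to 1176 in WT-O3 lungs, 4194 to 5318 in Nfkb1KO-Air lungs and 1900 to 2219 in WT-Air lungs. For the 9 member genes, by their brightest probe sets, the summed signal was 778.3 to 1111 in Nfkb1KO-O3 lungs, 673.4 to 816.4 in WT-O3 lungs, 658.9 to 1038 in Nfkb1KO-Air lungs and 849.5 to 1270 in WT-Air lungs. The member sums of WT-O3 lungs lay wholly below those of WT-Air lungs. Those of the O3 groups overlapped, as did those of the air groups and of both Nfkb1KO groups. Linear sums weigh most on the brightest members, Cd3d and Cd3g, which were themselves lower without overlap in WT-O3 lungs. The members other than the CD3 chains overlapped between WT-O3 and WT-Air lungs. The part of NK cells in the differences of Tbx21, Ifng, Il2rb and Ccl5, which these cells also express, was not tested.

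**Figure D5:**
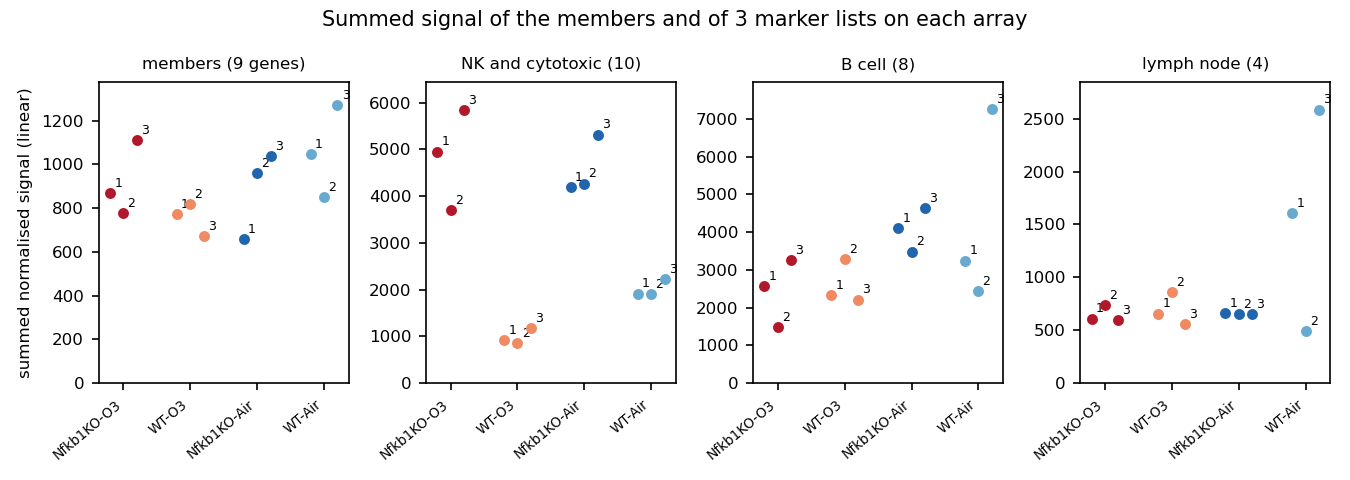
Summed normalised signal (y axis, linear scale from 0) of the 9 member genes and of the 10 NK and cytotoxic, 8 B cell and 4 lymph node markers on each array of the 4 groups (x axis), with the replicate number beside each point. The NK sums of Nfkb1KO-O3 lungs (3701 to 5840) lie above those of WT-O3 lungs (856.1 to 1176), while the member sums overlap between most groups, and WT-Air replicate 3 is highest in the members, B cell and lymph node panels.

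The 10 genes outside the members whose pattern over the 12 arrays was most like the mean centred profile of the members, among 17560 genes compared, were led by Irf4, a transcription factor of lymphocytes, at Pearson's r = 0.95. Cpsf3 (0.92), Smox (0.89), Ampd1 (0.88), Cd2 (0.87), Dpy19l3 (0.87), H2-Oa (0.87), Slco1a4 (0.87), Ikzf3 (0.87) and Arhgap18 (0.86) followed. Cd2 is an adhesion receptor of T and NK cells, H2-Oa is an MHC class II chaperone of B cells, and Ikzf3, Aiolos, is a lymphocyte transcription factor. The members' profile was highest on WT-Air replicate 3, at 0.52, and lowest on Nfkb1KO-Air replicate 1, at -0.26, the 2 arrays that stand apart. The low end was nearly shared by WT-O3 replicates 3 and 1, at -0.25 and -0.23. These r values describe the arrays at hand. Ampd1 is an enzyme of skeletal muscle, and muscle transcripts were highest on WT-Air replicate 3. Their part in these r values was not tested.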

How the data were processed

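RNA of each left lung was hybridised to 1 Affymetrix mouse genome array. The deposited values were linear signal intensities that the authors had made with MAS5 in Affymetrix Expression Console, whose versions are not given in the sources used here, and scaled to a trimmed mean of 500 per array. No detection calls were used, and precision is limited by how many arrays there are. After 64 control probe sets were left out, a floor of 1 was applied to the signals, which were then put on a log2 scale and quantile normalised between arrays. The filter followed the methods of the study. Of 45101 probe sets, 34958 had 1 gene symbol in the annotation used, 932 several and 9211 none. RefSeq on GRCm38.p6 knew 34754 of the 34958.

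limma 3.58.1 in R 4.3.3 fitted 1 mean per group to all 12 arrays with a mean-dependent trend, and was checked on simulated data. Linear signals were summed over the brightest probe set of each gene. Members, lists and alternatives were chosen with earlier results of these data known. Named genes were all members, up to 3 genes with the smallest p per list and comparison, and the 10 most alike in pattern. Any other gene was picked with its values in view. Promoters were found for 7 of the 10 member genes. The methods of the study name no pairing by replicate number, and the main fit used none. Deviations of arrays with the same number correlated at -0.10 to 0.08, which cannot show that these mice were unpaired. Alternatives covered normalisation, floor, filter, trend, array weights, probe set choice, samples in the fit, left-out arrays, the replicate block and the methods' t-test and two-way ANOVA.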

Additional observations from a re-analysis of the deposited data

Results flagged for a closer look

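The O3 change of Cd274, the PD-1 ligand gene, differed between genotypes. In Nfkb1KO mice minus WT mice it was 2.42 ± 0.34 on the log2 scale (limma, adjusted p = 0.049), where Cd274 rose with O3 in Nfkb1KO lungs by 2.28 ± 0.24 and WT lungs had 7.57 to 7.87 after O3, against 7.63 to 8.05 in air. All 3 Nfkb1KO-O3 mice were above all others. Over 23 alternatives the difference was 2.16 to 2.75, and it was called in 7 and not in 16, with adjusted p of 0.0011 to 0.34. It was lost when any 1 array other than Nfkb1KO-O3 replicate 3 was left out (adjusted p = 0.056 to 0.21).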

How the results depend on the processing

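Over 24 alternative settings, 150 log2 differences of members and list genes gave 3446 values, of which 3322 kept their direction and side of the threshold, 85 were no longer called, 26 became called and 13 turned direction. A difference within 1 standard error of 0 was taken to have no direction (110 such sign changes). The number of members called was 0 throughout, except with O3 in WT mice, where leaving out single arrays gave 0 to 1, the 1 being Cd3e without WT-Air replicate 2 (log2 -2.12 ± 0.52). Turned directions were Cd3d in air (0.0041 without Nfkb1KO-Air replicate 1, -0.65 to 0.0041 over single left-out arrays, 0.16 without both arrays that stand apart) and with O3 in Nfkb1KO mice (-0.042 to 0.61 over single left-out arrays, -0.042 without both), Icos 1436598_at with O3 in Nfkb1KO mice (0.047 as mean of probe sets), Nfatc2 (0.028 as mean of probe sets) and Icosl (-0.073 without both) in air, Nrp1 (0.18 with median-centred arrays) and Bcl6 (0.25 with median-centred arrays, 0.15 as mean of probe sets, -0.24 to 0.011 over single left-out arrays, 0.010 without both) with O3 in Nfkb1KO mice, and Cd247 in the interaction (-0.15 as mean of probe sets). The cause was not tested.

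Counts over all probe sets moved more: 16 to 109 in air (78), 73 to 381 after O3 (174), 137 to 2470 with O3 in WT mice (1375), 219 to 2208 with O3 in Nfkb1KO mice (1527) and 0 to 15 for the interaction (8). With the replicate block, Cd3e with O3 in WT mice was -1.59 ± 0.53 (adjusted p = 0.16), and 0 members were called in any comparison. With O3 in WT mice, the block ended the calls of Entpd1 and Cxcl16 (adjusted p = 0.080 and 0.066). It also ended those of Ccl17 with O3 in Nfkb1KO mice and of the Cd274 interaction (adjusted p = 0.053 and 0.14). Only 1 of 12 arrays correlated best with its own number. After adjustment the methods' t-test in air, run in its ordinary form, called 0 members and 0 of 42559 probe sets. The two-way ANOVA called 0 members and 195 (genotype), 3492 (exposure) and 0 (interaction) of all. The study's own gene list in air came from a moderated t-test with a fold threshold, so that these counts are not the study's. Low signals, most of all Cd4, Ctla4 and the dim Cd8a probe sets, limit these values.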
